A study of Mus musculus with 54 samples.

Results

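The mouse mitochondrial genome (mtDNA) encodes 7 subunits of respiratory complex I, through the genes mt-Nd1, mt-Nd2, mt-Nd3, mt-Nd4, mt-Nd4l, mt-Nd5 and mt-Nd6. These 7 genes, chosen by name as the complex I genes of mtDNA, were followed among 32586 genes in 39 of the 54 kidney libraries of the series, namely 24 10x Genomics libraries and 15 bulk libraries. The other 15 libraries (12 of nuclei and 3 of Balb/c male cells) list no mtDNA gene and were not used here. All 7 genes are listed in 36 of the libraries used, and the 3 Balb/c male bulk libraries list 5, without mt-Nd3 and mt-Nd4l.

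The study asked how dissociation and storage change what is measured in a kidney, with 3 libraries per group, which the study treats as biological replicates. The C57BL/6J kidneys came from 19-week-old male littermates, named AFAPIL.1DEL C57BL/6J in the study's methods, with no experimental treatment. They were dissociated warm, with a heated commercial enzyme kit, or cold, on ice with a protease from Bacillus licheniformis. Aliquots of each suspension were sequenced fresh, after cryopreservation for 6 weeks or after methanol fixation for 3 months (10x chemistry version 2), and fresh suspensions were also sequenced in bulk after depletion of ribosomal RNA. The Balb/c females were untreated 15-week-old wild type mice that had been used as breeders. Their cold suspensions were sequenced fresh or after cryopreservation for 2 weeks (10x version 3), and bulk libraries selected for poly(A) RNA were made from intact kidneys and from cold suspensions. The Balb/c males were untreated, 18 weeks old, and their intact kidneys were sequenced in bulk after ribosomal RNA depletion. Between the C57BL/6J and the Balb/c female experiments strain, sex, age and library method change together and cannot be told apart. The Balb/c males share the strain of the females and the sex and RNA selection of the C57BL/6J mice.

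Complex I takes electrons from NADH, passes them to ubiquinone and pumps protons across the inner mitochondrial membrane. The 7 mtDNA-encoded subunits form the core of its membrane arm: the products of mt-Nd2, mt-Nd4 and mt-Nd5 are the large proton-pump subunits, and those of mt-Nd1, mt-Nd3, mt-Nd4l and mt-Nd6 lie at and beside the ubiquinone site and the junction with the peripheral arm. Both strands of mtDNA are transcribed as long precursors that are cut, mostly at tRNAs, into mRNAs, and the remaining subunits and the assembly factors are encoded in the nucleus. The proximal tubule, which reabsorbs most of the filtrate, and the thick ascending limb are among the most mitochondria-rich segments of the nephron.

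A pair of features of the sequences bears on how reads of these genes can be assigned, and the sequences that show them are printed here, from the GENCODE transcripts of GRCm38. On chromosome MT, mt-Nd1 lies at 2751 to 3707, mt-Nd2 at 3914 to 4951, mt-Nd3 at 9459 to 9806, mt-Nd4l at 9877 to 10173, mt-Nd4 at 10167 to 11544 and mt-Nd5 at 11742 to 13565, all on the plus strand and each a single exon. mt-Nd6, at 13552 to 14070, is the only member on the minus strand. mt-Nd4l and mt-Nd4 share 7 bases on the same strand, and the ends of mt-Nd5 and mt-Nd6 cover the same 14 bases on opposite strands. In the next 4 lines the shared bases are in capitals, in the last 60 bases of mt-Nd5, mt-Nd6 and mt-Nd4l and the first 60 of mt-Nd4.
mt-Nd5: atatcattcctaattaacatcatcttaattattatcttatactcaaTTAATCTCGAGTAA
mt-Nd6: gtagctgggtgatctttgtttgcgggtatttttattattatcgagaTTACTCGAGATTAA
mt-Nd4l: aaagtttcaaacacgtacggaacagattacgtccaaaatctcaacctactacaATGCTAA
mt-Nd4: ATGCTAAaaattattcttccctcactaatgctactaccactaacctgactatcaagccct

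The other feature is that 3 members have near-complete or long copies in the nuclear genome, on the minus strand of chromosome 1. Gm28438, at 24612775 to 24613119, matches mt-Nd3 over 345 of its 348 bases with 1 difference, T3C counted from 1 at the 5′ end of the mt-Nd3 mRNA. Gm10222, at 24612407 to 24612700, is identical to the first 294 of the 297 bases of mt-Nd4l. Gm28439, at 24611535 to 24612410, is identical to 876 of the 1378 bases of mt-Nd4. The first 300 bases of mt-Nd3 and the whole mt-Nd4l mRNA are shown because almost no base separates them from their copies. In the next 2 lines, capitals mark the base that differs and the bases past the end of the copy.
mt-Nd3: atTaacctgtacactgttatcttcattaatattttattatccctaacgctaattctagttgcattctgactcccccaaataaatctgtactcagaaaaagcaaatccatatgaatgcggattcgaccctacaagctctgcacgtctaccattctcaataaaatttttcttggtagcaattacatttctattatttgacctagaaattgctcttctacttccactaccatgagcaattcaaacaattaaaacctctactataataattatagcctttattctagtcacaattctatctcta
mt-Nd4l: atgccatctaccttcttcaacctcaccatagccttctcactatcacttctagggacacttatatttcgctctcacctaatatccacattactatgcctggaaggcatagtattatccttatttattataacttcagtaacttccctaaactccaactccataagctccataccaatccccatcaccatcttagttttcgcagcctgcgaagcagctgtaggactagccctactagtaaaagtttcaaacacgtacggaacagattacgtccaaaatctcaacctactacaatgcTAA

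A read of 51 bases taken from mt-Nd3 or mt-Nd4l would be found unchanged in an annotated nuclear transcript for 98.0% and 98.8% of the possible start positions. The share was 62.2% for mt-Nd4, 8.00% for mt-Nd2, 7.22% for mt-Nd5 and 0% for mt-Nd1 and mt-Nd6. At 150 bases it remained 97.0% for mt-Nd3, 98.0% for mt-Nd4l and 59.2% for mt-Nd4, and was 0% for the other 4. The deposited 10x files list none of these copies. In the C57BL/6J bulk libraries Gm28438 held 17 to 30 counts against 18 to 43 for mt-Nd3, and Gm10222 held 54 to 152 against 20 to 42 for mt-Nd4l. In the Balb/c female bulk libraries Gm28438 held 293 to 547 counts while mt-Nd3 held 0 to 8. For mt-Nd4, Gm28439 held 233 to 316 counts against 12127 to 18582 of the member in C57BL/6J bulk. A low count of a copy does not show that reads shared with it were given to the member. Bulk counts of mt-Nd3 and mt-Nd4l are therefore uncertain, those of mt-Nd4 are uncertain over the shared part of its sequence, and the values of mt-Nd1, mt-Nd2, mt-Nd5 and mt-Nd6 are those with little or no sequence shared with a nuclear transcript.

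The libraries used held 983522 to 27869324 UMIs (10x) and 2326998 to 31093949 reads (bulk) in genes. Cells were assigned to types from markers, and 68.3% of 47282 C57BL/6J cells and 77.9% of 21221 Balb/c female cells received a type. The unassigned cells were shallow, with a median of 724 UMIs in C57BL/6J and 1232 in Balb/c females. Assigned proximal tubule cells had 1544.5 and 4050.5, so values of that type may lean to its deeper cells. Of the C57BL/6J cells, 1416 barcodes occurred in 2 or more libraries (at most 11), and 55 of the Balb/c female barcodes did. Connecting tubule cells had the lowest median depth of the types tested, at 612 UMIs. Among fresh libraries the first cold and the first warm C57BL/6J replicate stood apart, with the lowest shares of the members in B cells, T cells, macrophages and endothelial cells of their groups, and values without them are given where they matter.

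In bulk RNA of cold C57BL/6J suspensions, in counts scaled to 1000000 per library (CPM) and per kilobase of mRNA, mt-Nd1 was the highest member. It stood at 3617, 4971 and 5290 in the 3 libraries. mt-Nd2 followed at 2240, 3102 and 3468, and mt-Nd5, the longest member, at 2086, 2962 and 3090, and these ranges overlap. mt-Nd4 stood at 1210, 1696 and 1774 and mt-Nd6 at 950, 1409 and 1569, again overlapping. mt-Nd4l (13.2 to 22.5) and mt-Nd3 (9.83 to 19.6) were listed far lower, and these are the 2 members whose sequence lies almost wholly in nuclear copies. The place of mt-Nd4 in this order carries the same doubt for its shared part.

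The Balb/c female suspensions had the same order of means for the 4 highest members, mt-Nd1 (5087 to 6261 CPM per kilobase), mt-Nd2 (4335 to 5279), mt-Nd5 (4111 to 5006) and mt-Nd4 (2358 to 2879). mt-Nd6 stood apart between the library types. It made up 1.46 to 2.29% of the counts of the 13 mtDNA-encoded mRNAs in the ribosome-depleted C57BL/6J bulk libraries and 0.258 to 0.304% in the poly(A)-selected Balb/c female bulk libraries, which do not overlap. In the ribosome-depleted Balb/c male kidneys its share was 1.69, 8.93 and 1.80%, so that the second library stood far above the other 2. Sex, age and RNA selection change together between the Balb/c males and females, and the difference was not tested.

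**Figure D1:**
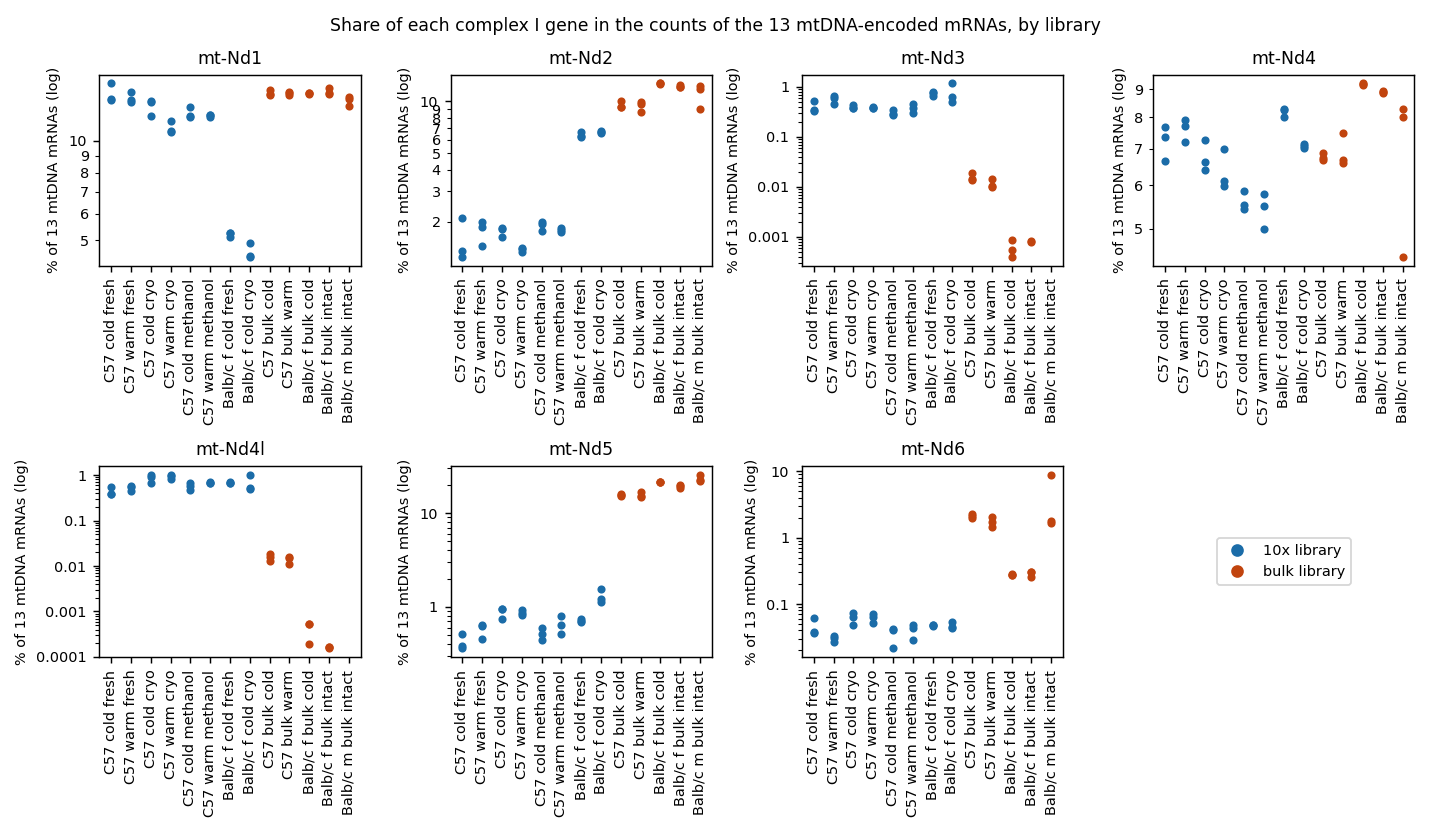
Share of each of the 7 members in the counts of the 13 mtDNA-encoded mRNAs (percent, log axis), 1 point per library, for the 10x groups (blue) and the bulk groups (orange). mt-Nd5 and mt-Nd6 sit far higher in bulk than in 10x libraries, and mt-Nd3 and mt-Nd4l far lower. A library listed at 0 is not drawn.

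The 10x and bulk libraries of the same fresh C57BL/6J suspensions ranked the members differently. Within the 13 mtDNA-encoded mRNAs, mt-Nd5 made up 0.361 to 0.641% of the 10x UMIs (mean 0.495%, n = 6) and 15.0 to 16.8% of the bulk reads (mean 15.6%, n = 6), 31.5-fold higher in bulk. mt-Nd6 averaged 0.0378% and 1.92%, 50.8-fold higher in bulk. mt-Nd2 averaged 1.66% and 9.50%, 5.70-fold higher in bulk. In these members no 10x library reached any bulk library. The 2 assays are unlike measures. The 10x libraries came from the 3′ workflow, which counts 3′ ends, and the bulk libraries from ribosome-depleted RNA. The 10x sums hold only cells that passed the authors' filters, and bulk the suspension. Bulk counts are reads and 10x counts are UMIs, and neither share was divided by mRNA length. The lengths are 1824 bases for mt-Nd5, 519 for mt-Nd6 and 1038 for mt-Nd2. The part of length, of the assay and of the cell filter in these folds was not tested. The sizes also depend on what stands in the sum. Of the other mtDNA-encoded mRNAs, mt-Co3, mt-Atp6 and mt-Co2 made up 23.6, 18.8 and 4.95% of the 10x counts and 0.197, 0.129 and 0.172% of the bulk counts, and 99.5 to 100% of the possible 51-base reads from them lie in nuclear transcripts. mt-Atp8 was low in bulk too, at 0.179% of the 10x and 0.00132% of the bulk counts, and none of its 51-base reads lie in a nuclear transcript. The cause of these low bulk shares was not tested. With the first 3 mRNAs taken out of the sum, which was done after the data were seen, mt-Nd5 was 16.6-fold, mt-Nd6 27.1-fold and mt-Nd2 3.00-fold higher in bulk, still without overlap.

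The opposite held for the 2 shortest members, again without division by length. mt-Nd3 averaged 0.487% in 10x and 0.0136% in bulk, 35.8-fold higher in 10x, and mt-Nd4l averaged 0.480% and 0.0148%, 32.5-fold higher, with the bulk counts of both uncertain as described above. mt-Nd1 made up 13.6% of the 10x and 13.9% of the bulk counts, with overlapping ranges (adjusted p = 0.383, exact two-sided permutation test over 6 and 6 libraries). mt-Nd4 made up 7.42% and 6.84%, ranges that also overlap (adjusted p = 0.0446, exact permutation test), with its bulk count uncertain over the part shared with Gm28439. For the other 5 members the adjusted p was 0.00256 by the same exact permutation test, whose smallest unadjusted p is 0.00216. The test called 6 of the 7 members, where 92.3% of the 13 mRNAs were called, so the members' count is close to that background. The call of mt-Nd4 was lost in 9 of the 12 tests that left out 1 library. mt-Nd1 was called without the third cold 10x library (adjusted p = 0.0216, exact permutation test), so that the number of members called ran from 5 to 7. These are shares of one sum, in which the rise of any mRNA lowers the others, and the values of mt-Nd1 and mt-Nd4 turn on it. Without mt-Co1 both were lower in 10x, with differences of -5.41 percentage points for mt-Nd1 and -1.85 for mt-Nd4. Without mt-Co2, mt-Co3 and mt-Atp6 both were higher in 10x, mt-Nd1 by 11.9 percentage points (25.8% of the 10x counts) and mt-Nd4 by 7.23 (14.1% against 6.87%), neither with overlap. In each case the adjusted p was 0.00216 (exact permutation test). The like share of mt-Nd1 was thus seen with the sum of all 13 and with neither of these other sums. The bulk files carry no suspension number, so the 10x and bulk libraries could not be paired. With labels exchanged only among libraries of the same dissociation, also added after the data were seen, the adjusted p was 0.40 for mt-Nd1, 0.0433 for mt-Nd4 and 0.00591 for the other 5 (exact permutation test).

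The order within 10x libraries, per kilobase, also depended on the experiment. Per kilobase, mt-Nd1 was highest in fresh cold C57BL/6J cells (36105, 43129 and 49402 CPM per kilobase) and mt-Nd4 second (14527 to 16513), while mt-Nd2 (3810 to 5261), mt-Nd4l (4076 to 4696) and mt-Nd3 (2976 to 3996) overlapped. In fresh Balb/c female cells, also per kilobase, mt-Nd2 (19939 to 20530) was highest and mt-Nd4 (18777 to 19950) overlapped it, above mt-Nd1 (17258 to 18478). On this scale mt-Nd5 and mt-Nd6 were the lowest members in every fresh cold library of both experiments, at 629 to 726 and 193 to 375 in C57BL/6J cells. The order turns on the division by length. Without it, mt-Nd5 averaged 0.495% of the mtDNA-encoded mRNA UMIs in the fresh cold and warm C57BL/6J libraries. There mt-Nd3 averaged 0.487%, mt-Nd4l 0.480% and mt-Nd2 1.66%. Strain, sex and chemistry cannot be told apart here.

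In fresh C57BL/6J cells complex I mRNA took a larger part of the UMIs in most tubule cells than in endothelial and T cells. The sum of the members made up 7.18, 8.05 and 8.38% of the UMIs of proximal tubule cells in the 3 cold libraries and 7.39, 7.19 and 6.91% of those of the thick ascending limb, the segment that reabsorbs salt without water. The sum of the members was 7.25, 6.70 and 6.47% in the distal convoluted tubule and 6.80, 7.09 and 6.99% in intercalated cells, a type that here pools the acid-secreting and the bicarbonate-secreting kind. These 4 ranges overlap, apart from the proximal tubule against the intercalated cells. Connecting tubule cells, the shallowest of the types tested, held 7.55, 8.34 and 9.11% by the sum of the members.

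The sum of the members was lower in principal cells, the water-reabsorbing cells of the collecting duct, at 3.85, 5.21 and 5.11%. Endothelial cells held 3.65, 5.91 and 6.11%, T cells 2.79, 5.38 and 5.89% and podocytes, the filter cells of the glomerulus, 2.98, 4.21 and 4.6%. In each of these types, and for the sum of the members in macrophages (3.27, 6.17 and 6.54%) and B cells (3.68, 6.55 and 7.32%), the first cold library was the low one. Fresh Balb/c female libraries, in which no library stood apart in this way, had the sum of the members at 7.61 to 7.80% in the proximal tubule, 7.63 to 8.25% in the thick ascending limb and 7.93 to 8.35% in the distal convoluted tubule. There the sum of the members was 6.52 to 7.44% in intercalated cells, 5.39 to 6.26% in principal cells, 4.86 to 5.36% in endothelial cells, 4.36 to 4.74% in T cells and 3.31 to 4.24% in podocytes.

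**Figure D2:**
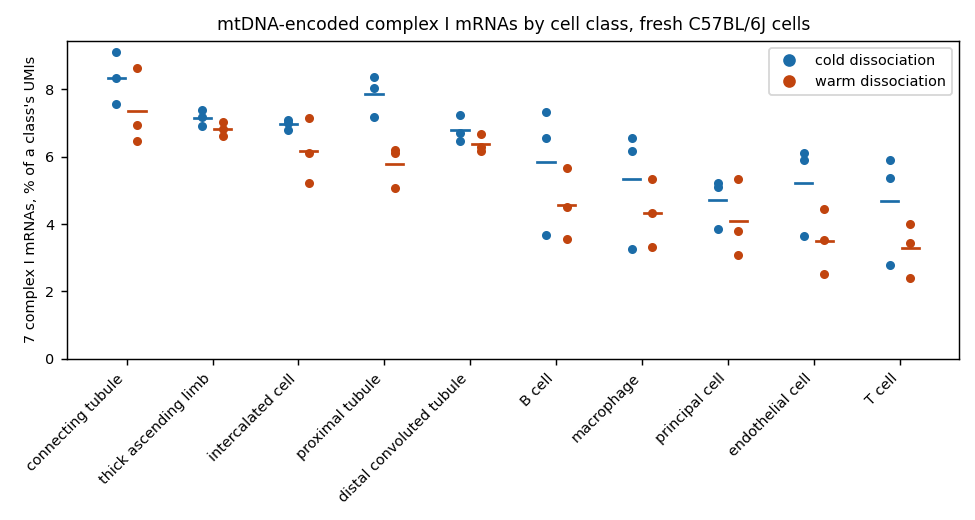
Summed share of the 7 complex I mRNAs in the UMIs of each cell type (percent), fresh C57BL/6J cells, cold (blue) and warm (orange). Points are libraries and bars are means. The proximal tubule, thick ascending limb, distal convoluted tubule and intercalated cells lie above endothelial cells and T cells in the means of both dissociations.

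Each type was then tested against the proximal tubule within the same 6 fresh libraries, by edgeR's quasi-likelihood test with the library as a block. Of 63 pairs of member and cell type, 40 were lower than in the proximal tubule and 3 higher, where 50.6% of all genes tested were called (29.6% lower, 21.0% higher). All 7 members were lower in T cells, endothelial cells, principal cells and macrophages. mt-Nd1 was lower in T cells (log2 fold change -1.34 ± 0.17, SE), in endothelial cells (-1.26 ± 0.11) and in macrophages (-0.52). The median over all genes tested was -0.40 in T cells, -0.011 in endothelial cells and -0.27 in macrophages. Over all types tested, that median ran from -0.59 in B cells to -0.0057 in the thick ascending limb. The 3 higher pairs were mt-Nd4l in the distal convoluted tubule (0.51) and in the thick ascending limb (0.26) and mt-Nd3 in the thick ascending limb (0.32).

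The estimates of mt-Nd4l spread more between types than those of its neighbours on the genome, a difference that was not tested. Its log2 fold change ran from -1.65 ± 0.21 in T cells and -1.55 ± 0.12 in endothelial cells to 0.51 in the distal convoluted tubule. In the connecting tubule mt-Nd4l was lower (-0.60) with the marker-based types, where the median over all genes was -0.53. It was 0.072 higher (edgeR adjusted p = 0.62) with Leiden clusters in their place. Proximal tubule markers, in CPM scaled to the counts of nuclear genes alone, summed to 11912 to 12284 in cold proximal tubule cells. They summed to 402 to 1666 in the other types, and the part of such RNA in these values was not tested. In endothelial cells the nuclear complex I subunits Ndufab1 (-2.16), Ndufv3 (-2.11) and Ndufb6 (-2.10) were also lower than in the proximal tubule, as were the ATP synthase subunit mt-Atp6 (-1.35) and the cytochrome oxidase subunits mt-Co1 (-1.30) and mt-Co2 (-1.18). The assembly factors Ndufaf6 (-2.47), Nubpl (-1.67) and Timmdc1 (-1.55) and, among the factors of mtDNA expression, Ppargc1a (-2.25), Fastkd2 (-1.89) and Lrpprc (-1.79) were lower there too.

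The genes whose level followed the members most closely across types were Tuba4a (Pearson r = 0.84), Lrpprc (0.80), BC005537 (0.79), Acot13 (0.77) and Sgk2 (0.77). These r are over 29 sums from 12 types in 3 fresh cold libraries, among 8785 genes outside mtDNA. The sums share libraries and depth, so no p is given. Lrpprc binds and stabilises mitochondrial mRNAs. The median r was 0.52 for the 36 nuclear complex I subunits (19 over 0.5), 0.34 for 13 assembly factors, 0.077 for 14 factors of mtDNA expression and -0.041 for all genes.

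Proximal tubule cells held lower levels of mt-Nd1, mt-Nd4 and mt-Nd6 after warm than after cold dissociation. mt-Nd1 stood at 38909, 46710 and 52763 CPM, here UMIs scaled within the cell type, in cold and 26990, 36336 and 32674 in warm libraries. mt-Nd4 stood at 22178, 25003 and 22707 in cold and 16206, 18385 and 18936 in warm libraries, and mt-Nd6 at 107, 133 and 228 against 59.2, 83.7 and 67.8. In all 3 members every warm library was below every cold one. The log2 fold changes were -0.65 ± 0.16 (SE) for mt-Nd1 (adjusted p = 0.0263), -0.51 ± 0.12 for mt-Nd4 (adjusted p = 0.0228) and -1.27 ± 0.25 for mt-Nd6 (adjusted p = 0.013), by edgeR's quasi-likelihood test on sums over 3 libraries a group.

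These were the only pairs called of 67, a share near the 4.56% of all genes called (2.08% lower, 2.48% higher), although 53 of the 67 estimates were lower in warm cells. In the proximal tubule alone 3 of 7 members were called, where 8.77% of all genes were. mt-Nd5 in the proximal tubule, at 1517, 1333 and 1281 in cold and 1338, 1209 and 1612 in warm libraries, overlapped. Without the first warm library no pair was called, without the second or the third cold library 1 was, and without the first cold library 6 were. With the number in the headers as a replicate block, which here joins a cold and a warm suspension, 7 pairs were called. The p-values measure the spread between these libraries.

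Within the mtDNA-encoded mRNAs no change of a member's share passed the test between warm and cold cells. On that scale, where nuclear genes are set against the mtDNA sum, 16.5% of all genes were called. Of the members' pairs 0 of 67 were called by edgeR, 10 at an unadjusted p under 0.05. The count of calls was 7 without the first cold library (6 higher, 1 lower), 2 without the second warm library, 0 without any other 1 library, and 1 with mt-Co1 left out of the sum. Of the 67 share estimates 48 were higher and 19 lower in warm cells. Those of mt-Nd2, mt-Nd3 and mt-Nd5 were higher in 10 of 10 types and those of mt-Nd6 lower in 6 of 7. Of the other mtDNA-encoded mRNAs 4 of 60 pairs were lower in warm cells and none higher, among them mt-Co1 (-0.99), mt-Atp6 (-0.71) and mt-Cytb (-0.51) in the proximal tubule. Of the nuclear complex I subunits 1 of 348 pairs was called, Ndufa10 (0.52 higher). Of 30 pairs for assembly factors Foxred1 (0.75 higher) was called, and of 36 for factors of mtDNA expression none (edgeR). The hemoglobin genes, markers of red cells, were lower in warm cells in 25 of 39 pairs, with Hbb-bt at -1.82 in the proximal tubule, and their part in the result was not tested.

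In bulk RNA of the same suspensions the members were not called: 0 of 7 by edgeR's quasi-likelihood test, 0 at an unadjusted p under 0.05, and 0 by its exact test and by DESeq2, where 8.68% of all genes were called. Without the filter on low counts 1 was, mt-Nd6 (-0.40, edgeR adjusted p = 3.39e-06). mt-Nd1 stood at 3461, 4758 and 5062 CPM in cold and 3273, 4519 and 4627 in warm suspensions, which overlap (log2 fold change -0.13 ± 0.16, SE). mt-Nd6 stood at 493, 731 and 815 in cold and 348, 651 and 565 in warm suspensions (-0.41 ± 0.21, edgeR adjusted p = 0.289) and mt-Nd3 at 3.42, 5.03 and 6.83 against 2.34, 3.33 and 4.69 (-0.56 ± 0.32, edgeR adjusted p = 0.342). All 7 estimates were lower in warm suspensions, with a median of -0.14 against -0.01 over all genes, and in share of the mtDNA-encoded mRNAs 0 of 7 were called by edgeR (0 at an unadjusted p under 0.05, background 1.72%). In bulk, fewer cells of a type and less RNA per cell cannot be told apart. Polg2, a subunit of the mtDNA polymerase, was higher by 1.47 in warm suspensions and the coactivator Ppargc1a by 0.32, and 3 of 4 hemoglobin genes were lower, Hbb-bt (-0.91), Hba-a2 (-0.85) and Hbb-bs (-0.65).

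After cryopreservation of C57BL/6J cells members were called in both directions, while after cold dissociation 39 of 55 estimates were lower and 16 higher. After cold dissociation 11 of 55 pairs were called, 4 higher and 7 lower, in 8 cell types, against 7.53% of all genes (3.82% higher, 3.71% lower). Proximal tubule cells are not among them, since too few were recovered after thawing for a test. The rises were in mt-Nd5, a proton-pump subunit, and mt-Nd4l, and in intercalated and principal cells of the collecting duct.

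In intercalated cells mt-Nd5 stood at 1374, 1291 and 1385 CPM in fresh and 4691, 3857 and 5966 in cryopreserved libraries. That is a log2 fold change of 1.73 ± 0.18 (SE, edgeR adjusted p = 1.12e-05), from 206, 334 and 400 UMIs fresh and 458, 681 and 593 cryopreserved. mt-Nd4l rose there from 1487, 1190 and 1392 to 3073, 2894 and 3974 (1.18 ± 0.17, edgeR adjusted p = 0.00034). Every cryopreserved library was above every fresh one.

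Principal cells showed the same 2 members. mt-Nd5 rose from 687, 789 and 762 CPM to 1865, 2393 and 2913 (1.74 ± 0.20, edgeR adjusted p = 0.000126), and mt-Nd4l from 813, 892 and 837 to 1540.3, 2367 and 2822 (1.47 ± 0.22, edgeR adjusted p = 0.00112). Again the groups did not overlap.

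The falls were mostly in macrophages. mt-Nd1 fell there by 1.11, mt-Nd4 by 1.09, mt-Nd3 by 0.87 and mt-Nd2 by 0.82 on the log2 scale. mt-Nd1 stood at 18386, 36161 and 41274 CPM in fresh and 18318, 16150 and 14919 in cryopreserved macrophages, so the first fresh library lay beside the cryopreserved ones while the other 2 did not. mt-Nd3, at 573, 679 and 754 against 427, 397 and 379, did not overlap. In intercalated cells mt-Nd1 fell from 36861, 41264 and 42085 to 26908, 23174 and 28723 (by 0.73), without overlap, and mt-Nd3 by 0.65, and in B cells mt-Nd4 fell by 0.82. mt-Nd6 was not called in any type, with estimates of -0.67 in B cells to 0.57 in principal cells. Leaving out the first fresh cold library gave 23 calls (4 higher, 19 lower), leaving out the second or the third cryopreserved library 6 or 7, and the replicate block 20 (7 higher, 13 lower).

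Cryopreservation after warm dissociation called 15 of 54 pairs, 8 higher and 7 lower, against 9.19% of all genes (5.25% higher, 3.95% lower). mt-Nd4l was higher in 5 of 8 types, among them endothelial cells (417, 680 and 708 fresh, 1377, 1323 and 1252 cryopreserved, 1.27 ± 0.18, edgeR adjusted p = 0.000524). mt-Nd5 was higher in intercalated cells (1460, 1257 and 1764 fresh, 3596, 3758 and 3401 cryopreserved, 1.40), principal cells (741, 1070 and 1162 fresh, 2144, 2331 and 1828 cryopreserved, 1.20) and the thick ascending limb (1374, 1361 and 1681 fresh, 2536, 2701 and 2609 cryopreserved, 0.91 ± 0.12). None of these groups overlapped.

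mt-Nd3, the short subunit beside the ubiquinone site, moved the other way after warm dissociation. It was lower in macrophages (659, 924 and 1105 fresh, 382, 440 and 462 cryopreserved, -1.0), the distal convoluted tubule (-0.82), intercalated cells (-0.80) and the thick ascending limb (-0.62). The other falls were mt-Nd2 in macrophages (-0.73) and in the thick ascending limb (-0.38) and mt-Nd4 in macrophages (-0.69). mt-Nd1 was not called in any of the 8 types, with estimates of -0.56 in macrophages to 0.087 in endothelial cells. mt-Nd6 was not called in any of 6, with estimates of -0.32 in the distal convoluted tubule to 0.99 in endothelial cells (lowest edgeR adjusted p = 0.0538). Without the third fresh warm library 10 pairs were called.

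Within the mtDNA-encoded mRNAs, mt-Nd5 made up 0.479, 0.419 and 0.437% in fresh cold intercalated cells and 2.08, 1.77 and 2.18% after cryopreservation, a log2 fold change of 2.18 ± 0.19. In principal cells it went from 0.395, 0.328 and 0.324% to 0.921, 1.17 and 1.26% (1.68). mt-Nd4l rose in share in intercalated (1.63), principal (1.40) and mesangial or mural cells (1.26), which makes 5 of 55 pairs, all higher. Of all genes 8.68% were called (7.3% higher, 1.38% lower). Nuclear genes are set against the mtDNA sum on this scale. Their share called is thus not a background for proportions among the mtDNA-encoded mRNAs. After warm dissociation 8 of 54 pairs changed in share (6 higher and 2 lower, against 5.97% of all genes, 3.73% higher and 2.25% lower), with mt-Nd5 higher in intercalated cells (1.33) and the thick ascending limb (0.91) and mt-Nd3 lower in both (-0.88 and -0.63). The other rises were mt-Nd4l in intercalated cells (1.03), macrophages (0.93) and the thick ascending limb (0.82) and mt-Nd6 in macrophages (1.49, edgeR adjusted p = 0.00839), where it took 0.0271% of the mtDNA-encoded mRNAs in fresh and 0.0765% in cryopreserved cells on average.

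**Figure D3:**
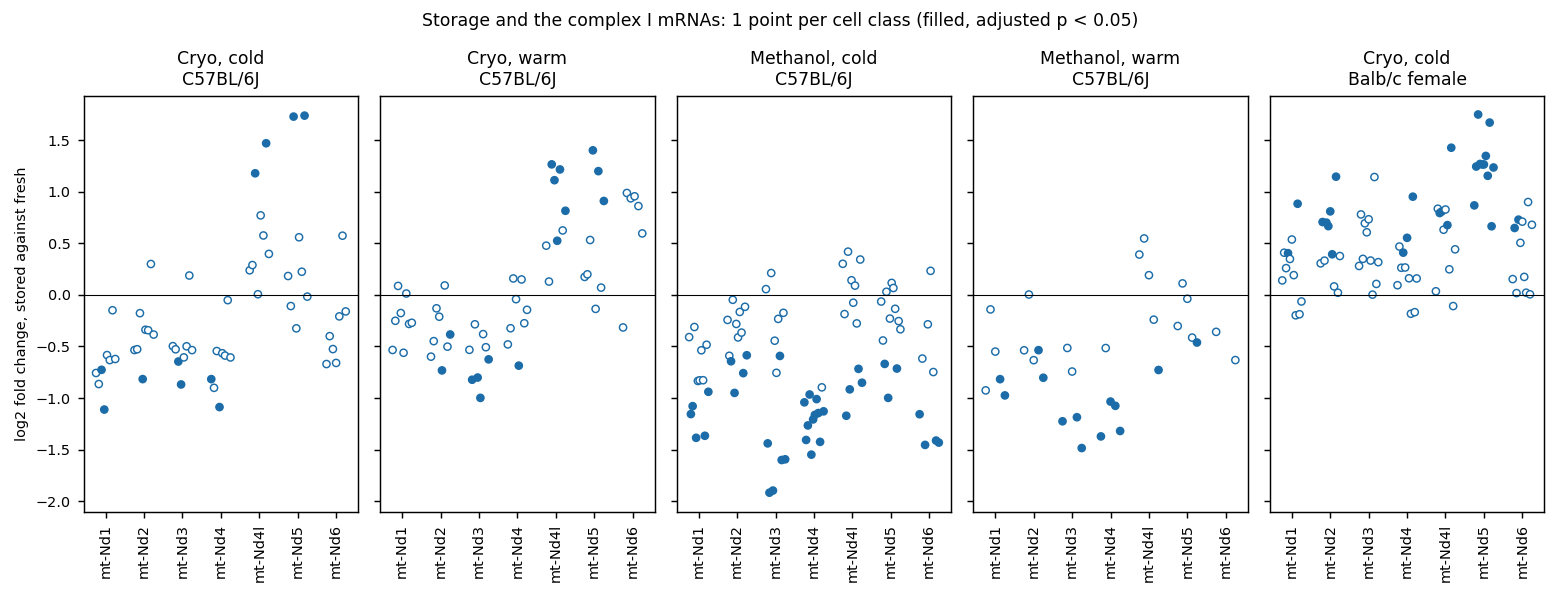
Log2 fold change of each member in stored against fresh cells, 1 point per cell type and 1 panel per comparison, filled where the edgeR adjusted p is under 0.05. mt-Nd5 and mt-Nd4l reach the highest values in the cryopreservation panels, and mt-Nd3 and mt-Nd4 the lowest in the methanol panels.

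The nuclear partners of the members fell or were not called after cryopreservation of C57BL/6J cells. Of the nuclear complex I subunits 32 of 279 pairs were lower after cold and 16 of 254 after warm dissociation, where 3.71% and 3.95% of all genes were lower, and none was higher. None of 11 pairs for assembly factors and none of 17 for mtDNA expression factors were called after cold dissociation (edgeR). Among the other mtDNA-encoded mRNAs, mt-Atp8, an ATP synthase subunit, gave all 6 rises of 48 pairs after cold and 8 of the 10 rises after warm dissociation. In cold endothelial cells mt-Atp6 fell by 1.00, mt-Co2 by 0.78 and the acyl carrier subunit Ndufab1 by 0.65, while mt-Atp8 rose by 0.76, and by 1.32 in warm ones. Scaled to the counts of nuclear genes alone, proximal tubule markers summed to 0 to 159 CPM in cold cryopreserved cells outside the proximal tubule. In fresh ones they summed to 402 to 1666. The hemoglobin genes were lower in 32 of 32 and 25 of 25 pairs. The part of either in the members' values was not tested.

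In the proximal tubule all 7 members fell with methanol fixation after cold dissociation, and over all 12 cell types 37 of 80 pairs of member and type did. mt-Nd4 went from 22178, 25003 and 22707 CPM in fresh to 9026, 10872 and 10717 in fixed proximal tubule cells (log2 fold change -1.42 ± 0.13, SE, edgeR adjusted p = 1.33e-05). mt-Nd3 went from 1482, 1191 and 1113 to 363, 457 and 626 (-1.60 ± 0.17, edgeR adjusted p = 5.67e-05) and mt-Nd1 from 38909, 46710 and 52763 to 16948, 22035 and 24206 (-1.37 ± 0.16, edgeR adjusted p = 0.00014). No fixed library reached a fresh one, and 20.1% of all genes were called in this type.

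The proton-pump subunit mt-Nd2 fell from 6011, 4695 and 4281 to 2922, 3489 and 3920 (-0.76), mt-Nd5 from 1517, 1333 and 1281 to 707, 1017 and 1207 (-0.71), and mt-Nd4l from 1547, 1409 and 1427 to 726, 1060 and 1318 (-0.72). mt-Nd6 fell from 107, 133 and 228 to 34.6, 78.3 and 86.6 (-1.41). In these 4 members too the groups did not overlap. No member's share of the mtDNA-encoded mRNAs was called in this type (edgeR, lowest adjusted p = 0.0651, for mt-Nd3; 0 at an unadjusted p under 0.05), so the sizes are not shown to differ between members.

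None of the 80 pairs was higher, against 20.7% of all genes (10.9% lower, 9.8% higher). mt-Nd4 was lower in 11 of the 12 types, by -0.97 in endothelial cells to -1.55 in intercalated cells, and T cells (-0.90) did not pass. All 7 members were lower in the distal convoluted tubule and in intercalated cells as well, and 6 in the thick ascending limb, without mt-Nd5 (-0.33). mt-Nd3 fell by 1.92 in the distal convoluted tubule and by 1.90 in intercalated cells. In endothelial cells, macrophages, B cells, mesangial or mural cells and podocytes mt-Nd4 was the only member called, and in T cells none was (edgeR). The estimate for mt-Nd4l was 0.42 in endothelial cells.

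After warm dissociation 13 of 32 pairs, in 5 types, were lower and none higher, where 11.1% of all genes were called (6.15% lower, 4.96% higher). In the proximal tubule 4 of 7 members were lower, where 10.2% of all genes were called. mt-Nd4 went from 16206, 18385 and 18936 to 8285, 8700 and 10263 (-1.08 ± 0.13, edgeR adjusted p = 0.000204), mt-Nd3 from 1144, 1085 and 1561 to 512, 736 and 514 (-1.19) and mt-Nd1 from 26990, 36336 and 32674 to 16435, 20000 and 22090 (-0.82), each without overlap. The thick ascending limb had 6 members lower, led by mt-Nd3 (-1.48) and mt-Nd4 (-1.32). With Leiden clusters in place of the marker-based types 29 pairs were called.

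On the share scale few members stood out after methanol. After cold dissociation 6 of 80 pairs changed in share of the mtDNA-encoded mRNAs (2 higher, 4 lower), where 41.6% of all genes were called (40.6% higher, 0.924% lower). mt-Nd3 lost share in the distal convoluted tubule (-0.86), intercalated cells (-0.72) and the thick ascending limb (-0.68), and mt-Nd4 in endothelial cells (-0.86). mt-Nd4l gained share in the connecting tubule (0.79) and mt-Nd5 in the thick ascending limb (0.59). Without the first fresh cold library 13 pairs changed (10 higher, 3 lower), and without the second or the third fixed cold library 3 did. After warm dissociation 6 of 32 pairs changed (1 higher and 5 lower, against 25.9% of all genes, 24.7% higher and 1.26% lower), and 2 did without the third fresh or without the first fixed warm library.

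Of the nuclear-encoded subunits of the same complex, 152 of 422 pairs were higher in fixed cells after cold dissociation and none lower, where 9.8% of all genes were higher. Most pairs did not pass. Of 36 nuclear subunits 25 rose in the proximal tubule, with a median log2 fold change of 0.40 against -1.37 for the members and -0.03 for all genes, among them Ndufc2 (0.80), Ndufb6 (0.76) and Ndufs8 (0.67). In endothelial cells 35 of 36 rose, with a median of 0.90 against -0.05 for the members. After warm dissociation 33 of 173 pairs were higher and none lower, where 4.96% of all genes were higher, with Ndufb4 (0.64), Ndufb2 (0.61) and Ndufb6 (0.59) leading in the proximal tubule.

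Of the assembly factors 4 of 33 pairs rose after cold dissociation, with Tmem126b (0.55), Ndufaf1 (0.52) and Ndufaf3 (0.51) in the proximal tubule, where Ndufaf6 rose by 0.60 after warm dissociation. Of the factors of mtDNA expression 5 rose and 5 fell of 38, with the coactivator Ppargc1a (-1.08) lower and the transcription elongation factor Tefm (0.76) and the mtDNA-binding protein Ssbp1 (0.50) higher in the proximal tubule. Among the other mtDNA-encoded mRNAs 24 of 72 pairs fell and 10 rose, 9 of them mt-Atp8. In the proximal tubule mt-Co1 (-1.22), mt-Atp6 (-1.19) and mt-Co3 (-1.09) fell after cold dissociation, and after warm dissociation mt-Atp6 fell (-0.60) and mt-Atp8 rose (1.44). Scaled to the counts of nuclear genes alone, proximal tubule markers summed to 826 to 2537 CPM in cold fixed cells of other types. In fresh ones they summed to 402 to 1666. In the proximal tubule itself they summed to 9299 to 9901 in fixed against 11912 to 12284 in fresh cells. The mtDNA genes left out of this scale took 26.1 to 31.7% of the UMIs in fresh cold libraries. They took 15.0 to 20.4% in fixed cold ones, so these sums cannot be set beside the members' CPM. The hemoglobin genes were higher in 23 of 48 pairs. The part of the markers and of hemoglobin in the result was not tested.

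Whether storage acted differently after warm and cold dissociation was tested as an interaction. For cryopreservation 0 of 42 pairs of member and cell type were called by edgeR (8 at an unadjusted p under 0.05, 0 by DESeq2), where 0.555% of all genes were. For methanol 0 of 34 were (2 at an unadjusted p under 0.05, 0 by DESeq2), where 0.0103% of all genes were. The estimated change was higher after warm dissociation in 33 of 42 pairs for cryopreservation (median 0.32) and 25 of 34 for methanol (median 0.13). Medians over all genes were -0.060 to 0.017 by type for cryopreservation and -0.14 to -0.0039 for methanol. The lack of calls does not show that storage acted alike. The 4 storage comparisons share the fresh libraries within each dissociation.

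In Balb/c female cells cryopreservation raised mt-Nd5 in all 11 cell types tested. Of 77 pairs of member and type 28 were higher and none lower, against 6.45% of all genes (2.38% higher, 4.07% lower), and 71 of the 77 estimates were higher. mt-Nd2 rose in 6 types, mt-Nd4l in 4, mt-Nd4 in 3, mt-Nd1 and mt-Nd6 in 2 each, and mt-Nd3 in none.

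mt-Nd5 in intercalated cells stood at 2689, 2394 and 2125 CPM in fresh and 9300, 6656 and 6786 in cryopreserved libraries (log2 fold change 1.75 ± 0.14, SE, edgeR adjusted p = 9.51e-10). In the proximal tubule, which could be tested here, it went from 2657, 2506 and 2468 to 7283, 6991 and 4691 (1.15 ± 0.15, edgeR adjusted p = 2.34e-05). In T cells it went from 1466, 1528 and 1442 to 4552, 3242 and 3393 (1.67 ± 0.19). The groups did not overlap in any of the 3 types.

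The rise of mt-Nd5 in principal cells, from 1902, 1650 and 1426 to 4732, 3856 and 3492, was 1.35. The smallest was in the thick ascending limb, from 2983, 2695 and 2352 to 5387, 4267 and 3598 (0.67, edgeR adjusted p = 0.0392), and that call was lost under 7 of the alternatives tried. T cells were the type in which most members rose: mt-Nd2 went from 14865, 14538 and 13509 to 23906, 24926 and 26747 (1.15), and mt-Nd4 (0.95), mt-Nd1 (0.88) and mt-Nd4l (1.43) rose too. Of the 7 members only mt-Nd5 was called in the proximal tubule, where 17.4% of all genes were, and the median of the members was 0.02.

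The first cryopreserved library carried more mt-Nd3 and mt-Nd4l than the other 2 in every cell type. In the proximal tubule mt-Nd3 stood at 4075, 2305 and 1722 CPM after cryopreservation and 2157, 2449 and 2630 fresh, and mt-Nd4l at 4825, 2639 and 2208 against 2438, 2428 and 2403. The groups overlap in both members. Without that library mt-Nd4l went from 0.81 to 0.32 in macrophages and from 0.68 to 0.24 in principal cells, and both calls were lost. The count of calls remained 28 without it, now 24 higher and 4 lower, and was 16 without the second fresh library.

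Within the mtDNA-encoded mRNAs 15 of 77 pairs changed in share (11 higher and 4 lower, against 26.4% of all genes, 1.47% higher and 24.9% lower). The 11 rises were all mt-Nd5, from 0.53 to 1.39 on the log2 scale. Its share went from 0.755, 0.725 and 0.721% to 1.96, 1.75 and 1.27% in the proximal tubule and from 0.818, 0.753 and 0.735% to 2.46, 1.79 and 1.80% in intercalated cells. The 4 falls were mt-Nd1 in endothelial cells (-0.26) and macrophages (-0.23) and mt-Nd4 in macrophages (-0.22) and mesangial or mural cells (-0.28). Without the first cryopreserved library 24 pairs changed in share (9 higher, 15 lower).

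**Figure D4:**
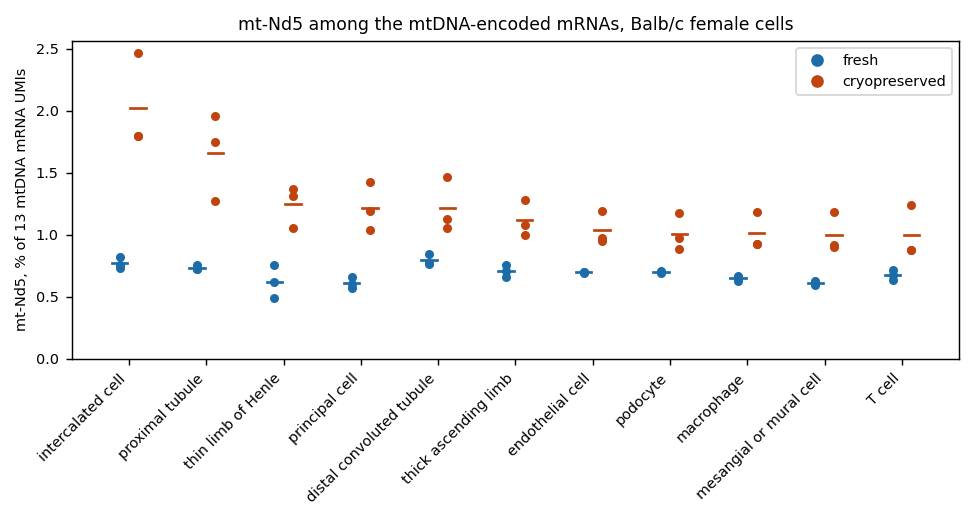
Share of mt-Nd5 in the UMIs of the 13 mtDNA-encoded mRNAs (percent) by cell type, Balb/c female cells, fresh (blue) and cryopreserved (orange). Points are libraries and bars are means. In intercalated cells the cryopreserved libraries stand at 1.79 to 2.46% and the fresh ones at 0.735 to 0.818%.

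Of the nuclear subunits of complex I, 107 of 390 pairs were lower in the same comparison and none higher, where 4.07% of all genes were lower. Most of these calls were in 5 types: 32 in the proximal tubule, 22 in principal cells, 19 in the thick ascending limb, 18 in macrophages and 5 in the distal convoluted tubule. Of 36 in the proximal tubule 32 were lower, with a median of -0.65, led by Ndufa12 (-1.02), Ndufc2 (-0.98) and Ndufab1 (-0.95), and in endothelial cells 3 and in T cells none of the 32 tested (edgeR). Of the assembly factors 4 of 81 pairs were lower, with Nubpl, which inserts iron-sulfur clusters, at -1.27, Ndufaf6 at -0.82 and Ndufaf3 at -0.60 in the proximal tubule. Of the factors of mtDNA expression 1 of 77 was higher, the mtDNA polymerase Polg (0.90), and 3 were lower, among them Slirp (-0.66) and Ssbp1 (-0.53). Of the other mtDNA-encoded mRNAs 38 of 66 pairs were higher, mt-Atp8 in all 11 types (1.79 in the proximal tubule, where mt-Co1 rose by 0.33). Proximal tubule markers, in CPM scaled to the counts of nuclear genes alone, summed to 166 to 1147 in fresh cells of the other types. In cryopreserved cells of those types they summed to 27.9 to 327, and their part was not tested.

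Intact Balb/c female kidneys held less complex I mRNA, in CPM, than cold suspensions. mt-Nd5 stood at 4140, 3876 and 3880 in intact kidneys and 9034, 7498 and 9132 in suspensions (log2 fold change -1.10 ± 0.10, SE, edgeR adjusted p = 7.49e-05). mt-Nd4 stood at 1848, 1784 and 1851 against 3883, 3249 and 3968 (-1.0 ± 0.09, edgeR adjusted p = 6.36e-05) and mt-Nd2 at 2533, 2435 and 2575 against 5376, 4500 and 5480 (-1.01 ± 0.09, edgeR adjusted p = 7.05e-05). Every intact kidney lay below every suspension.

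The members at the ubiquinone end moved by a like amount. mt-Nd1 stood at 2883, 2778 and 2996 in intact kidneys and 5919, 4868 and 5992 in suspensions (-0.94 ± 0.10, edgeR adjusted p = 0.000138), and mt-Nd6 at 53.7, 60.7 and 62.9 against 115, 100 and 117 (-0.90 ± 0.07, edgeR adjusted p = 3.92e-05). All 5 members tested were lower, against 20.0% of all genes (7.91% lower, 12.1% higher), with a median of -1.0 against -0.003 over all genes. mt-Nd3 (0 to 5 counts in intact kidneys and 4 to 8 in suspensions) and mt-Nd4l (1 in each intact kidney and 2 to 5 in suspensions) were too low to be tested. No member was called when a log2 fold change of 2 was also asked for.

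**Figure D5:**
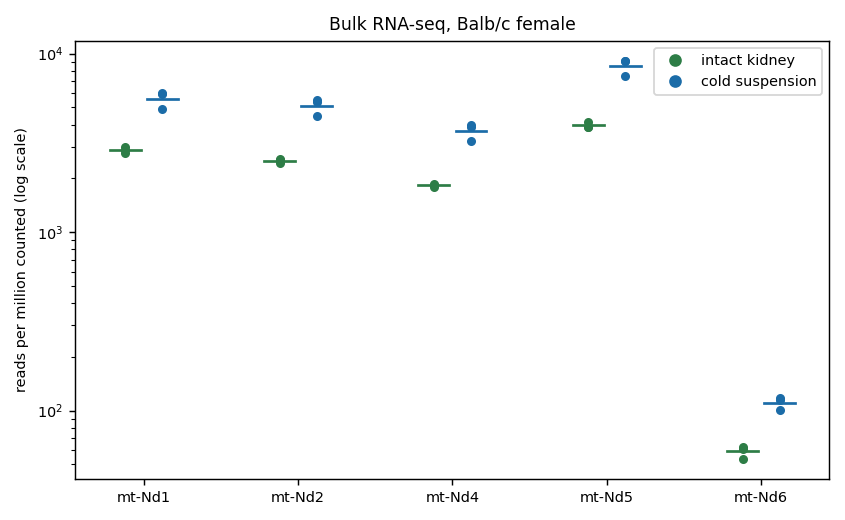
Level in CPM (log axis) of the 5 members tested in bulk RNA of Balb/c female kidneys, intact (green) and cold suspensions (blue), 1 point per library. In each member the 3 intact kidneys lie below the 3 suspensions.

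No change in proportion was called among the members. In share of the mtDNA-encoded mRNAs 0 of 5 were called by edgeR and 0 at an unadjusted p under 0.05. On that scale, where nuclear genes are set against the mtDNA sum, 92.1% of all genes were called. mt-Nd5 made up 18.7 to 19.9% in intact kidneys and 21.3% in each suspension (edgeR adjusted p = 0.206), and was called without the second suspension (-0.14, edgeR adjusted p = 0.048). The groups did not overlap in the shares of mt-Nd2 (-0.055) and mt-Nd4 (-0.046) either, and overlapped in those of mt-Nd1 and mt-Nd6. The other 6 mtDNA-encoded mRNAs, led by mt-Atp6 (-1.81), mt-Co2 (-1.78) and mt-Atp8 (-1.78), and both mtDNA-encoded ribosomal RNAs, mt-Rnr2 (-1.15) and mt-Rnr1 (-1.11), were lower too. Of 36 nuclear complex I subunits 1 was higher and 3 lower, Ndufb8 (0.25), Ndufb10 (-0.17) and Ndufa11 (-0.16) among them. Of 13 assembly factors Acad9 (0.57) and Ndufaf6 (0.35) were higher, and of 17 factors of mtDNA expression none were called (edgeR). Intact kidneys also differed in cell markers, summed here in CPM scaled to the counts of nuclear genes alone. Hemoglobin genes summed to 55.5 to 211 CPM against 241 to 918 in suspensions, adipocyte markers to 53.9 to 72.3 against 28.9 to 30.7 and fibroblast markers to 144 to 187 against 45.1 to 81.1. Endothelial markers summed to 779 to 884 against 553 to 603 and proximal tubule markers to 16281 to 19367 against 16098 to 16931, and the part of these cells in the members' difference was not tested.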

How the data were processed

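Deposited counts were used as the authors made them. For the 10x libraries these are UMI counts per gene and cell from Cell Ranger 2.1.1 (mm10), after the authors had kept cells called by EmptyDrops within limits on genes per cell and under 50% mitochondrial reads, which limits the members' level. By the mtDNA genes listed, the share reached 57.7% in a deposited cell, so that limit and this share are not the same measure. For bulk they are deposited read counts per gene from Trim Galore, TagDust2, STAR 2.6.1a (GRCm38), Picard and featureCounts. The strand setting and the treatment of reads with several positions are not given in the sources used here. Depth per library is the sum of these counts. Sums of marker, hemoglobin and adipocyte genes were scaled to the counts of nuclear genes alone, unlike the members' CPM.

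Cells were assigned to a type where at least 2 markers of it were detected and its weighted marker score was at least 1.5 times that of the next type. Cells with scores closer than this stayed unassigned. No doublet caller was run, and a doublet led by 1 type would be assigned to it. In C57BL/6J and Balb/c female sets 3364 and 1451 cells lay within a factor of 1.25 of this limit. UMIs were summed per library and type, for types with at least 10 cells in every library of both groups. Sums and bulk counts were tested over all genes with edgeR 4.0.16 (R 4.3.3), the quasi-likelihood test with TMM, filterByExpr and Benjamini-Hochberg adjustment within each type, called at an adjusted p of 0.05. For shares the library size was set to the sum of the 13 mtDNA-encoded mRNAs. All genes were tested on this scale, so a nuclear gene's value is its level against that sum. The share of all genes called there is thus not a background for proportions among the mtDNA-encoded mRNAs. In the dissociation and storage comparisons each pair of member and type counts as 1 unpaired test of 3 against 3 libraries. How often groups do not overlap over all genes was not counted. Statements on overlap thus describe the libraries and add no support beside the test. Stored and fresh libraries are aliquots of the same suspensions, which the main tests do not use. No pairing was used for the Balb/c female libraries, which the paper also describes as aliquots. Cell types were compared within 6 libraries with the library as a block, and each interaction used 12. 10x and bulk shares were compared by an exact permutation test over libraries (own code in Python 3.11.15).

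Alternatives were edgeR's exact test, RLE factors, no filter, scaling on nuclear genes, DESeq2 1.42.0, a fold threshold, a stricter marker rule, Leiden clusters (scanpy 1.11.5, resolution 1.5), cells under 40% mtDNA, each library left out, and, added after the data were seen, a block for the suspension number and, for 10x against bulk, a sum without mt-Co2, mt-Co3 and mt-Atp6 and labels exchanged within each dissociation. The text names the members in every comparison, and of the other lists up to 3 called genes with the largest change in bulk and in the proximal tubule (endothelial cells where that was not tested), with hemoglobin and adipocyte genes mostly as counts or sums. For likeness it names the 5 genes with the highest r on log2 values (scaled to 1000000 UMIs of nuclear genes) with a pseudocount of 10, over sums of at least 50 cells. Members and lists were chosen with earlier results of these data known. Column headers give C57BL/6J 10x libraries a number (20, 21 or 22) and a letter for the dissociation. Aliquots of a suspension share both, and each number occurs with both dissociations, so in warm against cold the block joins different suspensions, which the sources do not tie to 1 mouse. Deviations from the group means correlated within each number for methanol (r = 0.41 to 0.63). For cryopreservation r within a number was only -0.18 to 0.11, and for warm against cold -0.18 to 0.39. In those comparisons the block rests on the header numbers alone.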

Additional observations from a re-analysis of the deposited data

Results flagged for a closer look

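The Balb/c male intact kidneys entered none of the comparisons, and their signal lies in data no comparison used. The 5 members listed there summed to 1.89% of all counts in the first library, 0.978% in the second and 1.97% in the third. mt-Nd6 made up 1.69, 8.93 and 1.80% of the mtDNA-encoded mRNA counts, so that the second library, also the shallowest, held the lowest sum and the highest mt-Nd6 share. A group of 3 was not tested for outlying libraries, and the cause was not tested.

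Gm28438, the nuclear copy of mt-Nd3, is listed in the bulk files beside the members and had counts in every bulk library. It held 17, 26 and 30 counts in cold and 17, 26 and 19 in warm C57BL/6J suspensions, and 32, 7 and 23 in Balb/c male kidneys. In Balb/c females it held 344, 306 and 293 counts in intact kidneys and 477, 486 and 547 in cold suspensions, where mt-Nd3 itself held 0 to 8. Whether these reads came from the nuclear gene or from mtDNA was not tested.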

How the results depend on the processing

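Single values were recomputed for 221 member values, those called at first and all in bulk or in 10x against bulk. Of the 2694 recomputed values, 2311 kept their direction and their side of the threshold, 376 lost the call, 4 gained one and 3 reversed: mt-Nd4l in the connecting tubule against the proximal tubule with Leiden clusters (0.072), mt-Nd4 in 10x against bulk without mt-Co1 (-1.85 percentage points) and mt-Nd1 there without mt-Co2, mt-Co3 and mt-Atp6 (11.9). Calls gained among these 221 were mt-Nd6 in bulk warm against cold without a filter (-0.40), mt-Nd5 share in intact kidneys without the second suspension (-0.14), and mt-Nd1 in 10x against bulk without mt-Co1 (-5.41) or the third cold library (-0.53).

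Calls gained by other pairs enter the counts that follow. Counts of called pairs moved by over 1.5 times as follows. Bulk warm against cold gave 1 without a filter. 10x warm against cold gave 5 with edgeR's exact test, 5 with DESeq2, 9 without a filter, 6 with Leiden clusters and 7 with the replicate block, and its share fit 1 without mt-Co1. Cold cryopreservation gave 17 with the exact test and 20 with the replicate block, and warm methanol 29 with Leiden clusters. With a fold threshold added, counts fell to 0 (intact kidneys), 1 (10x warm against cold), 3 and 0 (cryopreservation, cold and warm), 6 and 1 (methanol, cold and warm) and 2 (Balb/c female cryopreservation). The replicate block moved no other count by over 1.5 times.

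Leaving out 1 library gave 0 to 6 calls for 10x warm against cold (shares 0 to 7), 6 to 23 for cold (shares 4 to 15) and 10 to 19 for warm cryopreservation (shares 4 to 8), 30 to 41 for cold (shares 3 to 13) and 10 to 16 for warm methanol (shares 2 to 8), 16 to 31 for Balb/c female cryopreservation (shares 10 to 24), 41 to 45 for cell types, 5 to 7 for 10x against bulk, 5 to 5 for intact kidneys (shares 0 to 1) and 0 to 0 for bulk warm against cold and both interactions. Low counts limit mt-Nd6 in 10x, and mt-Nd3 and mt-Nd4l in bulk. The cause of these changes was not tested.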
